A study of Mus musculus with 72 samples.

Results

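The 10 genes described here, Fam81a, Cgnl1, Mns1, Tex9, Pygo1, Myo5c, Lysmd2, Fam83b, Cgas and Slc17a5, lie within 6 Mb of Gnb5 on mouse chromosome 9 and were chosen by their expression differences between Gnb5 genotypes in these same data. They are 10 of the 283 annotated genes of that window, Gnb5 excluded, and of the 53715 gene identifiers counted. The Gnb5-/- and Gnb5+/- groups were set against the same Gnb5+/+ libraries. Since the genotype differences chose the genes, all genotype values are given as a description without a test, and counts of genes past a threshold are set beside the share over all genes tested.

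RNA-seq was performed on male mice of 18 weeks, 6 of each genotype, carrying an exon 3 deletion of Gnb5 on both copies (Gnb5-/-), on 1 copy (Gnb5+/-) or on neither (Gnb5+/+). The allele was made in C57BL/6J inbred mice, and the line was re-derived from frozen sperm by in vitro fertilisation and bred from heterozygotes. Litters with Gnb5-/- pups received softened food around weaning. Atria and ventricles were taken from all 18 mice, and cerebellum, hippocampus and cortex from the Gnb5-/- and Gnb5+/+ mice, which gives 72 libraries in 12 groups of 6, where a mouse contributed to every tissue of its genotype. The deletion and any sequence inherited together with it on chromosome 9 cannot be told apart in this design.

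Gnb5 encodes the fifth G protein beta subunit, which pairs with R7 regulators of G protein signalling instead of a gamma subunit, and speeds the shutdown of inhibitory G protein signals in neurons and in heart cells. The neighbouring genes belong to no common pathway. Fam81a encodes a coiled-coil protein found at synapses, Cgnl1 encodes paracingulin of cell junctions, and Mns1 and Tex9 encode proteins of cilia and of male germ cells. Pygo1 encodes a co-activator of the Wnt pathway that reads methylated histone H3, and Myo5c a class V myosin motor of epithelial cells. Lysmd2 encodes a protein with a LysM domain, Fam83b a scaffold that binds casein kinase 1, Cgas the cytosolic DNA sensor that makes the second messenger of the STING pathway, and Slc17a5 sialin, which exports sialic acid from lysosomes.

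In GRCm38, Gnb5 occupies chr9:75306288-75345876 on the plus strand. Myo5c (chr9:75232020-75305451, plus strand) ends 0.837 kb before its start, and Lysmd2 (chr9:75625741-75637771, plus strand) and Fam83b (chr9:76490054-76567116, minus strand) follow at 0.28 and 1.14 Mb on the other side. Cgas (chr9:78430526-78443237) and Slc17a5 (chr9:78536488-78588041), both on the minus strand, lie 3.08 and 3.19 Mb beyond Gnb5. On the side before Gnb5 lie Pygo1 (chr9:72925645-72952181, plus strand) at 2.35 Mb, Tex9 (chr9:72450394-72492212, minus strand) at 2.81 Mb, Mns1 (chr9:72438011-72462025, plus strand) at 2.84 Mb, Cgnl1 (chr9:71626509-71771602, minus strand) at 3.53 Mb and Fam81a (chr9:70088511-70142560, minus strand) at 5.16 Mb. Mns1 and Tex9 overlap tail to tail on opposite strands, and the pseudogene Gm8093 lies within Cgas on the other strand. The libraries kept strand, but the strand setting of the counting is not given in the sources used here, so reads of these overlaps may have been divided between the genes.

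The sequences upstream of 4 of the genes are shown because they belong to the members with the clearest heart difference (Fam81a), with opposite differences between brain regions (Mns1, beside its overlapping neighbour Tex9), and with lower values across the brain (Cgas). Each is the 250 bases before the RefSeq gene start in GRCm38.p6, 5′ to 3′ on the strand of the gene, with capitals marking motifs found on either strand. For Fam81a, Mns1 and Tex9, the RefSeq start lies inside the gene span given above, and so does the whole window. The motifs capitalised are GGGCGG, the core of the GC box, then CCAAT, and then GTTGCC, one arm of the X-box that RFX factors of ciliary genes bind.
Fam81a (chr9:70141558-70141807, minus strand): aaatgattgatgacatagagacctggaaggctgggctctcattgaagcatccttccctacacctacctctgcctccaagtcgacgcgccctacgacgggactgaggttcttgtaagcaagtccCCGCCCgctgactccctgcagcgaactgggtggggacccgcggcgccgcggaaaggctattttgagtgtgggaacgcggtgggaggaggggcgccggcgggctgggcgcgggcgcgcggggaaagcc
Mns1 (chr9:72438279-72438528, plus strand): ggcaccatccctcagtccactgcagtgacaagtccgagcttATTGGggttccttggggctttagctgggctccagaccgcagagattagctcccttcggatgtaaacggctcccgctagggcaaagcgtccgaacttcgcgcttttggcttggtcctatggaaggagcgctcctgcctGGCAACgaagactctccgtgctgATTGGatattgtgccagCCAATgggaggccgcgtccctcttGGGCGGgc
Tex9 (chr9:72491960-72492209, minus strand): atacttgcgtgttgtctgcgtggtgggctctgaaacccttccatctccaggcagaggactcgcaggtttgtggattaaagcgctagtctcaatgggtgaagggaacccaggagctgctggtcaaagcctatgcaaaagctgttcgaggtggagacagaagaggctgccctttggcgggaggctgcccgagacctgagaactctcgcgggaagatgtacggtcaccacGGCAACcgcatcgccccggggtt
Cgas (chr9:78443238-78443487, minus strand): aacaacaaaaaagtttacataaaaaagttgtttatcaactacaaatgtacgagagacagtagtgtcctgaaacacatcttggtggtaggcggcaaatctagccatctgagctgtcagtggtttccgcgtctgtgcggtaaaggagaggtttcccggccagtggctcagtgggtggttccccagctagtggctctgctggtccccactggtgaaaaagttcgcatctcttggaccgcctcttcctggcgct

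Of the 10 members, 9 matched a RefSeq promoter, and Lysmd2 is named only. GTTGCC stood in the upstream windows of Mns1, Tex9, Myo5c and Slc17a5, and in 10.4% of the 32851 RefSeq promoters compared. These are called all promoters here, and leave out those of a whole chromosome and repeated sequences of the same gene. GGGCGG stood in those of Fam81a, Cgnl1, Mns1, Pygo1, Myo5c, Fam83b and Slc17a5 and in 32.7% of all, and CCAAT in those of Mns1, Myo5c and Slc17a5 and in 33.8% of all. TATAAA was found only upstream of Myo5c among the 9, against 12.4% of all promoters. CACGTG (6.02% of all promoters), TTCCNGGAA (0.913%), TGACGTCA (1.55%) and CCGGAA (12% of all) were in none of the 9 windows. The share of G and C ran from 50% upstream of Cgas to 84% upstream of Pygo1, against a median of 52.4% over all promoters.

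Between 29204390 and 48807435 reads per library were counted on genes. Values are TMM-normalised read counts scaled to library size (CPM), in which the libraries of a tissue were scaled together. Gnb5 itself went with every label: its CPM was 26.6 to 32.9 in Gnb5+/+, 13.8 to 18.9 in Gnb5+/- and 1.49 to 2.6 in Gnb5-/- atria, and the groups did not overlap in any of the 5 tissues. Summed cardiomyocyte markers were at least 28000 CPM in every heart library and at most 718 in the brain, and neuron markers at least 3040 CPM in the brain and at most 8.55 in the heart. Atrial, ventricular, cerebellar granule cell, cortical and hippocampal markers were each highest in the libraries of their labelled tissue.

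Some libraries stood apart. In Gnb5-/- cerebellum, mouse 12 had 8.02% of its reads outside genes against at least 14% in the other 5, and choroid plexus markers summed to 890 CPM against at most 7.67. In Gnb5-/- cortex, mice 14 and 3 had 6.86% and 8.32% of reads outside genes against at least 13.4% in the others. Other marker sums differed in these libraries too. Endothelial markers were 42.2 CPM in cerebellum of mouse 12, against at least 58.3 in the other Gnb5-/- mice. In cortex they were 39.4 in mouse 14 and 48.4 in mouse 3, against at least 75.6. Choroid plexus markers of cortex were highest in another Gnb5-/- mouse, mouse 5, at 700 CPM. Among Gnb5+/- ventricles mouse 4 had ventricular markers of 13500 CPM against a group median of 9070, and among Gnb5+/+ atria mouse 16 had ventricular markers of 1200 CPM against a median of 338. Selected values that rest on these libraries are given with and without them.

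**Figure D1:**
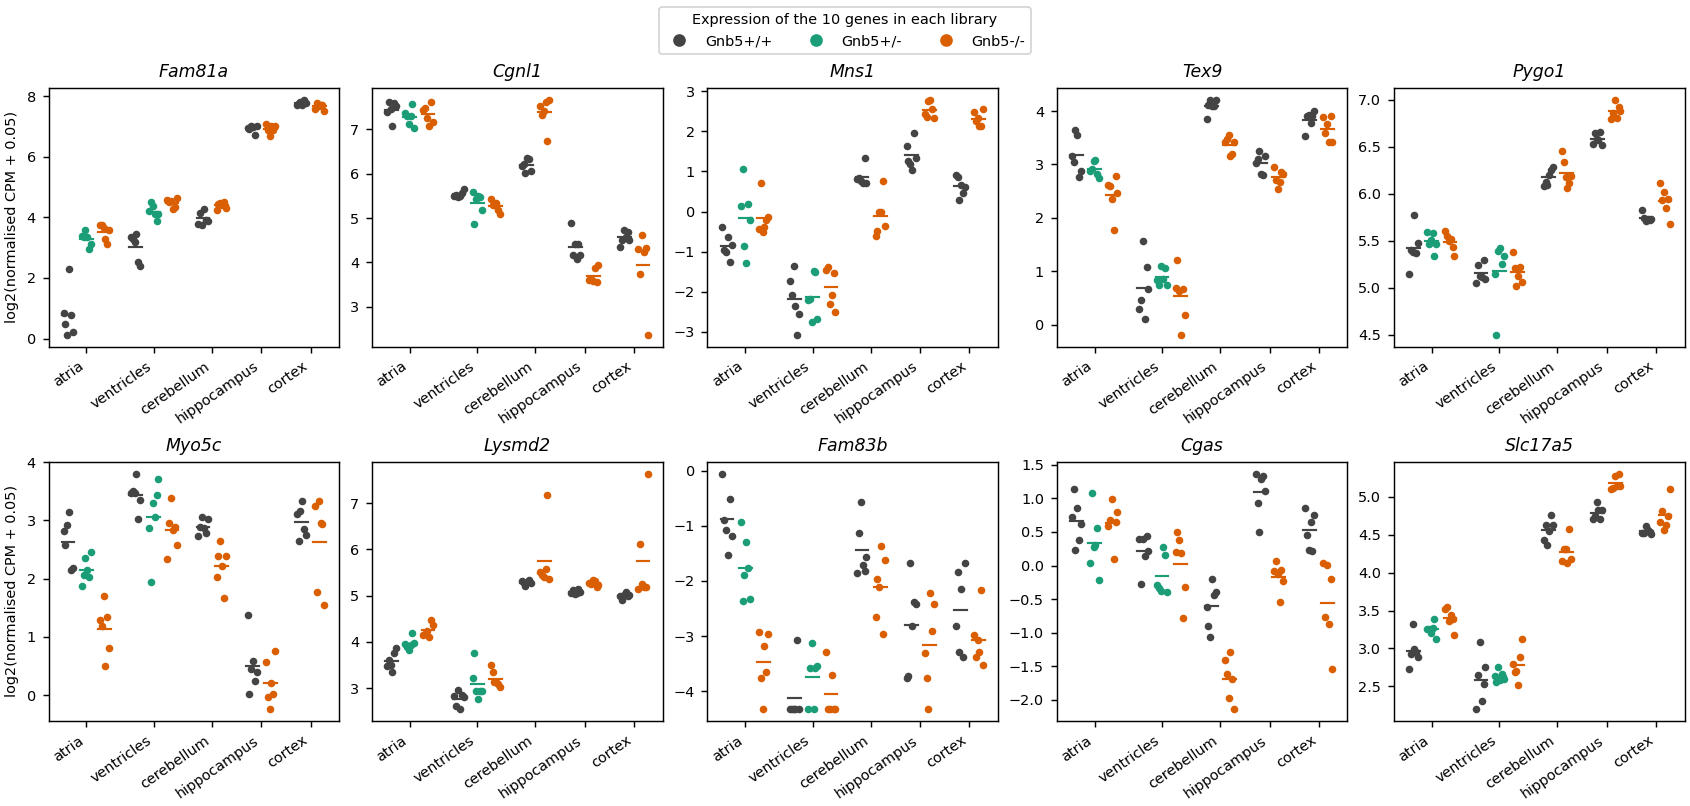
Expression of the 10 genes in all 72 libraries, as log2 of normalised CPM plus 0.05, by tissue and genotype, with 1 point per mouse and a line at the group mean. Fam81a stands higher in Gnb5-/- and Gnb5+/- than in Gnb5+/+ hearts, Cgnl1 stands higher in Gnb5-/- cerebellum and lower in hippocampus, and Mns1 the reverse.

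In atria, Fam81a and Lysmd2 were higher and Myo5c and Fam83b lower in Gnb5-/- than in Gnb5+/+ mice. These were the 4 of the 10 genes called, that is, with a Benjamini-Hochberg adjusted p below 0.05 from edgeR's quasi-likelihood test over all genes, where 0.253% of the 16181 genes tested were called. The same 4 were the genes whose Gnb5-/- and Gnb5+/+ values did not overlap, against 0.612% of all genes tested. In bulk tissue, fewer cells of a type and less RNA per cell cannot be told apart for any of these genes.

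Fam81a, the gene farthest from Gnb5, had the largest rise. Its atrial CPM was 1.04 at the lowest, 1.51 at the median and 4.83 at the highest in Gnb5+/+ mice, and 8.57, 12.1 and 13.4 in Gnb5-/- mice. Every Gnb5-/- mouse lay above every Gnb5+/+ mouse, with means of 11.5 ± 1.98 and 1.96 ± 1.43 (SD, n = 6) and a log2 fold change of 2.59 (SE 0.28), or 6.01-fold. The highest Gnb5+/+ value came from mouse 16, the library with the highest sum of ventricular markers, and without it the log2 fold change was 3.06 (SE 0.17). Mouse 18, with ventricular markers of 866 CPM, had 1.11 CPM of Fam81a.

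Fam83b, a scaffold protein of growth factor signalling, fell most. It had 0.295 to 0.912 CPM (8 to 29 reads, median 0.459 CPM) in Gnb5+/+ atria and 0 to 0.0814 CPM (at most 4 reads, median 0.0451) in Gnb5-/- atria, with no read in 1 Gnb5-/- library. Summed over 6 libraries there were 12 reads in Gnb5-/- and 110 in Gnb5+/+ atria, a ratio of 0.101 per read sequenced with an exact 95% interval of 0.0507 to 0.184, which covers counting error only. Fam83b was near 0 in the ventricles, where at most 2 reads were counted in any library.

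Myo5c, whose last exon ends just upstream of Gnb5 on the same strand, had 4.39, 6.45 and 8.85 CPM at the lowest, median and highest in Gnb5+/+ atria and 1.36, 2.32 and 3.22 in Gnb5-/- atria. The ranges were apart, with a log2 fold change of -1.51 (SE 0.20). Its other neighbour Myo5a, also a class V myosin, had a log2 fold change of 0.31 (SE 0.10) and was not called. Lysmd2 had 10.1, 11.7 and 14.5 CPM in Gnb5+/+ and 17.2, 18.4 and 22.3 in Gnb5-/- atria (log2 fold change 0.66, SE 0.09). Without Gnb5+/+ mouse 16, the log2 fold change was -1.39 (SE 0.20) for Myo5c and 0.62 (SE 0.09) for Lysmd2. Lysmd2 and Myo5c thus differed in opposite directions on the 2 sides of Gnb5. Direction did not go with the side, since Fam83b, on the side of Lysmd2, was lower and Fam81a, on the side of Myo5c, was higher.

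The other atrial differences were not called by edgeR, while DESeq2's Wald test called Tex9 and Slc17a5 as well. Tex9 had a log2 fold change of -0.75 (SE 0.16), with 5 of 6 Gnb5-/- mice below all Gnb5+/+ mice, and Slc17a5 one of 0.43 (SE 0.09), with 5 of 6 above. Mns1 was low, at 0.366 to 0.723 CPM in Gnb5+/+ and 0.656 to 1.6 CPM in Gnb5-/- atria (log2 fold change 0.79, SE 0.35). Cgnl1 (-0.10, SE 0.11), Pygo1 (0.06, SE 0.08) and Cgas (-0.03, SE 0.22) had the smallest log2 fold changes.

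In ventricles, 1 of the 8 members tested was called, Fam81a, where 0.188% of 14866 genes were. Its CPM was 5.25, 9.37 and 10.8 (lowest, median, highest) in Gnb5+/+ and 19.4, 23 and 24.7 in Gnb5-/- mice. No values overlapped, and the log2 fold change was 1.40 (SE 0.16). Mns1 and Fam83b had too few reads for the test. Groups were also apart for Lysmd2, higher in Gnb5-/- at 8.1 to 11.2 against 5.79 to 7.72 CPM, and for Cgnl1, lower at 34 to 43.2 against 44.5 to 50.3 CPM, so that 3 members did not overlap beside 0.538% of all genes. Myo5c was below every Gnb5+/+ mouse in 5 of 6 Gnb5-/- mice, with a log2 fold change of -0.60 (SE 0.21). Cgas, Pygo1, Slc17a5 and Tex9 had log2 fold changes between -0.20 and 0.18.

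Gnb5+/- mice were sampled in the heart alone, and their values are given beside those of the other genotypes. In atria, Fam81a was the only member called between Gnb5+/- and Gnb5+/+ mice, where 0.0124% of all genes were called, and it was also the only member without overlap, beside 0.198% of all genes. It had 7.64, 10.1 and 11.9 CPM at the lowest, median and highest in Gnb5+/- atria. This range overlapped that of Gnb5-/- atria and lay above all Gnb5+/+ values, with a mean difference of 82.2% of the Gnb5-/- difference. Without Gnb5+/+ mouse 16, the log2 fold change of Gnb5+/- atria was 2.83 (SE 0.17) in place of 2.36 (SE 0.28).

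The 3 other genes called in Gnb5-/- atria had Gnb5+/- means nearer the midpoint. The mean difference was 46.4% of the Gnb5-/- difference for Myo5c, 48.7% for Lysmd2 and 54.5% for Fam83b, against 50.8% for Gnb5 itself. These shares were not computed without Gnb5+/+ mouse 16. Without that mouse, the Gnb5+/- log2 fold change was -0.40 in place of -0.51 for Myo5c and 0.32 in place of 0.36 for Lysmd2. That of Fam83b was -1.12 in place of -1.01. All 6 Gnb5+/- mice lay between the means of the other genotypes for each of these 3 genes, and 5 of 6 did for Fam81a. Myo5c had 3.6, 4.26 and 5.47 CPM in Gnb5+/- atria, and Lysmd2 had 14.1, 15.3 and 18.1 CPM. Fam83b had 59 reads in the 6 Gnb5+/- atria, between the 110 and 12 of the other groups. Slc17a5 and Tex9, called in Gnb5-/- atria by DESeq2 but not by edgeR, were also intermediate in all 6 mice, at 60.2% and 44.4% of the Gnb5-/- difference. For Cgnl1, Mns1, Pygo1 and Cgas, not called in atria, the Gnb5+/- mean did not lie between those of the other genotypes.

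In ventricles, Fam81a was again the only member called in Gnb5+/- mice, where 0.0202% of all genes were called, and the only one without overlap, beside 0.168% of all genes. It had 14.5, 17.8 and 22.5 CPM, and 71.5% of the Gnb5-/- difference. Mouse 4 gave the highest value, and the log2 fold change was 1.12 (SE 0.16) with it and 1.05 (SE 0.15) without it. That library also had the group's highest Lysmd2 (13.5 CPM), and its lowest Myo5c (3.8 CPM), Pygo1 (22.6 CPM) and Cgnl1 (29 CPM). Without it, the Gnb5+/- log2 fold change of Lysmd2 was 0.20 (SE 0.11) in place of 0.37, and that of Myo5c was -0.16 (SE 0.17) in place of -0.31. With mouse 4 included, the share of the Gnb5-/- difference was 80.2% for Lysmd2, 68.4% for Cgnl1 and 57.5% for Myo5c. It was 9.81% for Mns1 and 8.16% for Slc17a5. The Gnb5+/- means of Tex9, Pygo1, Fam83b and Cgas did not lie between those of the other genotypes.

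**Figure D2:**
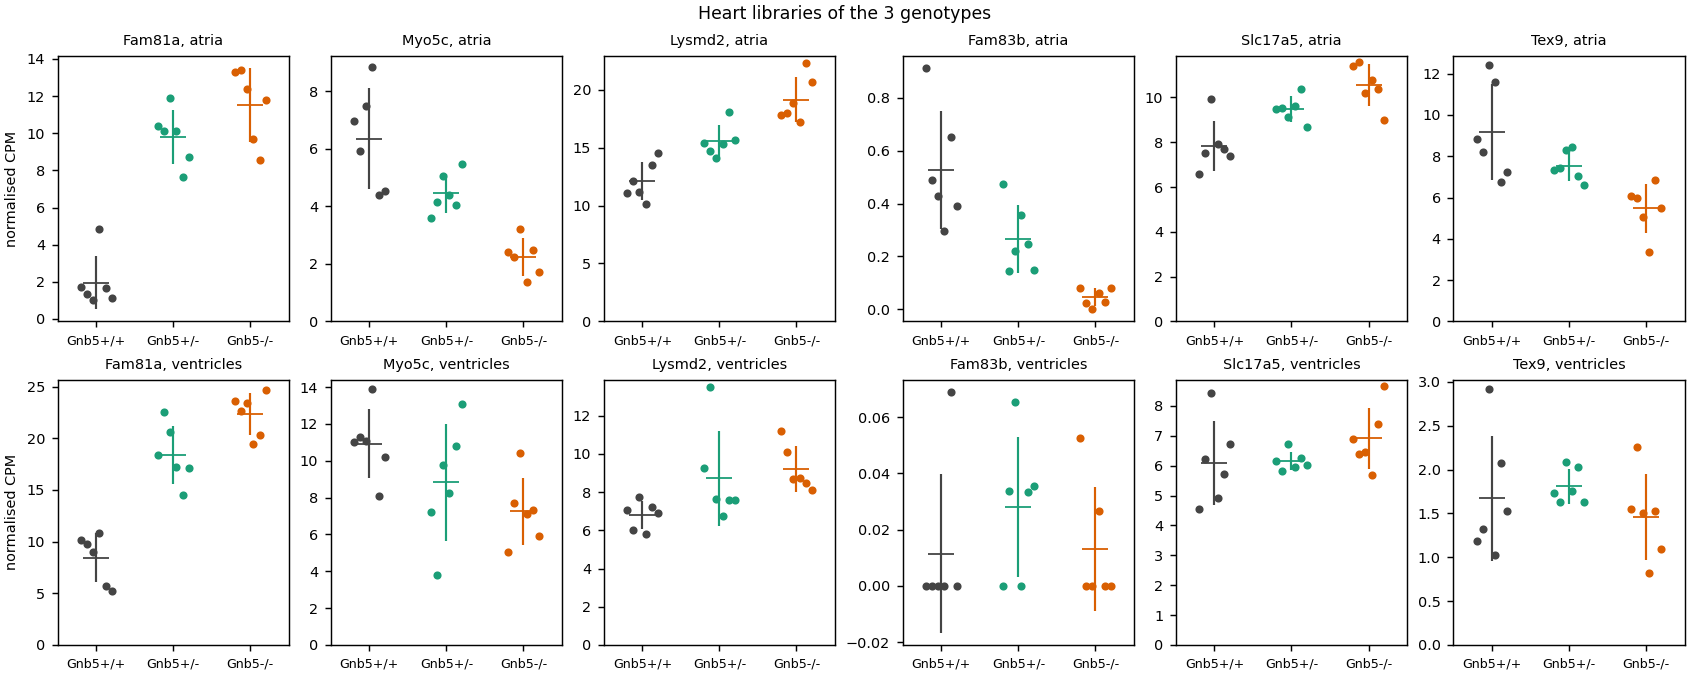
Normalised CPM of 6 genes in atria (top) and ventricles (bottom) of the 3 genotypes, with 1 point per mouse and bars for mean ± SD of 6 mice. In atria the Gnb5+/- means of Myo5c, Lysmd2 and Fam83b stand at 46.4% to 54.5% of the Gnb5-/- difference, and that of Fam81a at 82.2%.

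In cerebellum, Cgnl1 was higher and Tex9 lower in Gnb5-/- mice. They were the 2 of 10 members called, where 0.0817% of 17139 genes were. Cgnl1, which links junctions to the cytoskeleton, had 65.2, 73.3 and 82.1 CPM (lowest, median, highest) in Gnb5+/+ and 107, 178 and 204 CPM in Gnb5-/- cerebellum. All Gnb5-/- mice were above all Gnb5+/+ mice, with a log2 fold change of 1.21 (SE 0.14). The lowest Gnb5-/- value was that of mouse 12, and without it the log2 fold change was 1.32 (SE 0.07).

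Tex9 had 14.3, 17.1 and 18.5 CPM in Gnb5+/+ and 8.88, 10.7 and 11.6 in Gnb5-/- cerebellum, again without overlap (log2 fold change -0.72, SE 0.09). Its overlapping neighbour Mns1 was also lower, with 1.59, 1.69 and 2.46 CPM in Gnb5+/+ and 0.601, 0.834 and 1.66 in Gnb5-/- mice. The highest Gnb5-/- value, from mouse 12, was the one that overlapped, and the log2 fold change of Mns1 was -0.96 (SE 0.24) with this library and -1.20 (SE 0.17) without it. Groups of 5 members did not overlap in cerebellum, where 1.1% of all genes did not: Cgnl1, Tex9, Myo5c, Lysmd2 and Cgas.

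Cgas had 0.428 to 0.817 CPM (17 to 35 reads) in Gnb5+/+ and 0.177 to 0.36 CPM (7 to 16 reads) in Gnb5-/- cerebellum. Myo5c had 6.59 to 8.25 and 3.11 to 6.18 CPM in the same order, with a log2 fold change of -0.65, or -0.55 (SE 0.11) without mouse 12. Lysmd2 was 41.1 to 47.4 CPM in 5 Gnb5-/- mice and 145 CPM in mouse 12, against 37 to 40.4 CPM in Gnb5+/+ mice. Its log2 fold change was 0.65 (SE 0.29) with mouse 12 and 0.18 (SE 0.04) without. Leaving out this library brought 4 members past the threshold, Mns1 and Myo5c beside Cgnl1 and Tex9, where 0.359% of all genes were called.

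In hippocampus, Mns1, Pygo1 and Slc17a5 were higher and Cgas lower in Gnb5-/- mice. These were the 4 of 9 members called, where 0.165% of 17588 genes were, and Cgnl1 and Lysmd2 joined them among the 6 members whose groups did not overlap, beside 0.648% of all genes. Mns1 had 1.99, 2.41 and 3.84 CPM in Gnb5+/+ and 5, 5.61 and 6.87 CPM in Gnb5-/- hippocampus (log2 fold change 1.13, SE 0.15). Cgas had 1.37, 2.26 and 2.53 CPM in Gnb5+/+ and 0.634, 0.882 and 0.995 in Gnb5-/- mice (62 to 106 against 31 to 43 reads), and its log2 fold change was -1.32 (SE 0.17).

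Slc17a5 had 26, 27.5 and 30.4 CPM in Gnb5+/+ and 34.3, 35.4 and 39.4 in Gnb5-/- hippocampus, and Pygo1 91.7, 95.7 and 101 against 111, 117 and 128 CPM. These were small shifts with little spread, with log2 fold changes of 0.39 (SE 0.05) and 0.29 (SE 0.04). Cgnl1 was lower, at 16.8 to 29.4 CPM in Gnb5+/+ and 11.8 to 15.4 in Gnb5-/- mice (log2 fold change -0.68, SE 0.13). Its highest Gnb5+/+ value was that of mouse 7, where choroid plexus markers summed to 1500 CPM against 31.9 to 539 in the other 5 mice, and Myo5c was highest in the same library at 2.53 CPM. The other 5 Gnb5+/+ mice still had more Cgnl1 than any Gnb5-/- mouse, at 16.8 to 21.3 CPM. Fam81a had a mean of 122 CPM in both genotypes.

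Some marker sums moved with genotype in hippocampus. The 3 hippocampal markers summed to 259 to 320 CPM in Gnb5+/+ and 302 to 410 CPM in Gnb5-/- mice, and the 3 astrocyte markers to 1140 to 1280 and 1270 to 1390 CPM. Choroid plexus markers varied by mouse and overlapped, at 31.9 to 1500 CPM in Gnb5+/+ and 33.5 to 276 CPM in Gnb5-/- mice, with medians of 83.6 and 58.1. The part of these marker sums in the differences of the members was not tested.

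In cortex, Mns1 was the 1 of 9 members called, where 0.0557% of 17967 genes were. Its CPM was 1.18, 1.51 and 1.83 in Gnb5+/+ and 4.31, 4.86 and 5.8 in Gnb5-/- mice (log2 fold change 1.70, SE 0.14). Without mice 14 and 3 it was 1.65 (SE 0.14). Lysmd2 and Cgas were the other 2 of 3 members without overlap, beside 0.601% of all genes. Cgas had 1.11 to 1.76 CPM in Gnb5+/+ and 0.294 to 0.974 in Gnb5-/- cortex, with a log2 fold change of -1.04 (SE 0.27), or -0.79 (SE 0.22) without mice 14 and 3. Lysmd2 had 29.9 to 33.5 CPM in Gnb5+/+ cortex, and 35.3 to 38.1 CPM in 4 Gnb5-/- mice, 69.4 in mouse 3 and 199 in mouse 14. Its log2 fold change was 1.11 (SE 0.41) with all libraries and 0.19 (SE 0.05) without these mice.

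The same 2 cortical libraries had the lowest Myo5c of the tissue, at 2.86 CPM in mouse 14 and 3.35 in mouse 3, while the other Gnb5-/- mice reached 10.1 CPM. Myo5c changed sign when they were left out, from -0.21 (SE 0.29) to 0.14 (SE 0.14). Cgnl1 was lowest in them too, with 5.1 CPM in mouse 14 and 13.3 in mouse 3, and its log2 fold change was -0.48 (SE 0.27) with them and -0.19 (SE 0.09) without. These differences in cortex were not called in either case.

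**Figure D3:**
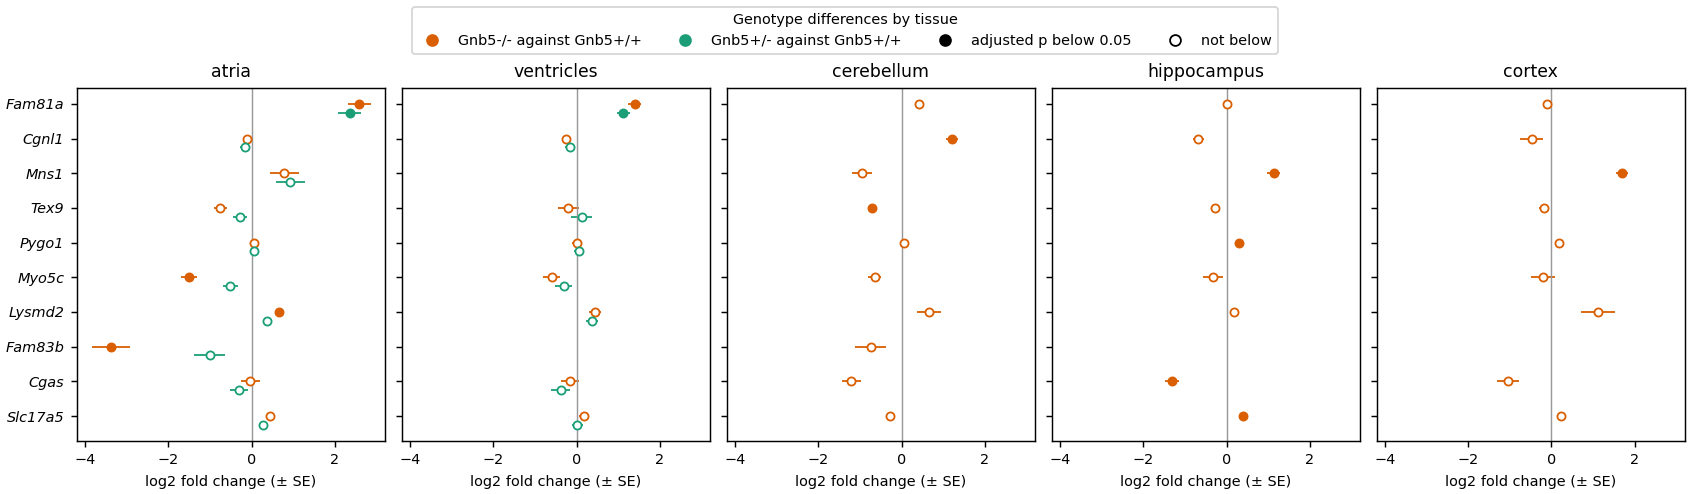
Log2 fold change ± SE of each member against Gnb5+/+ in each tissue, for Gnb5-/- (orange) and Gnb5+/- (green) mice, with filled points for adjusted p below 0.05 from edgeR's quasi-likelihood test. Points for Cgnl1 and Mns1 lie on opposite sides of 0 in cerebellum and hippocampus.

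Members fell into those with a common sign of the log2 fold change and those without. Some of the signs counted belong to values smaller than their SE. Lysmd2 and Pygo1 had positive log2 fold changes in all 5 tissues of Gnb5-/- mice, from 0.19 to 1.11 for Lysmd2 and from 0.02 to 0.29 for Pygo1. Pygo1 was called in hippocampus alone. For Lysmd2 the groups did not overlap in any of the 5 tissues, and its largest values became 0.19 in cortex without mice 14 and 3 and 0.18 in cerebellum without mouse 12. Cgas, Tex9 and Myo5c had negative values in all 5, though Myo5c turned positive in cortex without mice 14 and 3. Cgas in atria was 0.00 (SE 0.24) without Gnb5+/+ mouse 16, and Tex9 in ventricles was -0.20 (SE 0.25). The range was -1.32 to -0.03 for Cgas, with the 3 brain regions between -1.32 and -1.04 and both heart tissues between -0.16 and -0.03. Fam83b was lower in atria (-3.38) and in cerebellum (-0.74, SE 0.37), and was not tested elsewhere.

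Cgnl1, Mns1 and Slc17a5 changed direction between tissues. Cgnl1 was higher in Gnb5-/- cerebellum (1.21) and lower in hippocampus (-0.68), cortex (-0.48), ventricles (-0.26) and atria (-0.10). Mns1 was higher in cortex (1.70), hippocampus (1.13) and atria (0.79) and lower in cerebellum (-0.96). Slc17a5 followed Mns1 in sign, with -0.28 (SE 0.10) in cerebellum and 0.18 to 0.43 in the 4 other tissues. Fam81a moved less in the brain, with log2 fold changes of 0.42 (SE 0.10) in cerebellum and -0.11 (SE 0.07) in cortex. These differences between tissues chose the genes in part and were not tested, and the tissues come from the same mice.

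DESeq2's Wald test called more of the members than edgeR in 4 of the 5 Gnb5-/- tissues, and more of all genes in each. It called 6 members in atria, adding Tex9 and Slc17a5, where it called 0.62% of all genes with an adjusted p. It called 1 in ventricles (0.288% of all genes), and 6 in cerebellum (0.307%), adding Fam81a, Mns1, Myo5c and Cgas. In hippocampus it called 6 (0.514%), adding Cgnl1 and Lysmd2, and in cortex 2 (0.141%), adding Cgas. In Gnb5+/- mice it called Fam81a alone among the members in atria (0.0268% of all genes) and in ventricles (0.0106%).

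The sizes of the members' differences are given beside those of all genes. The members were chosen for such differences, so a larger size follows from the choice and is no result. The median size of the log2 fold change over the members tested was 0.71 in atria, 0.23 in ventricles, 0.69 in cerebellum, 0.33 in hippocampus and 0.22 in cortex. Over all genes tested it was 0.10, 0.09, 0.15, 0.06 and 0.21 in the same order. The signed medians of the members were 0.01, -0.07, -0.47, 0.00 and -0.11, against -0.01 to 0.01 over all genes. Only cortex had a median size close to that of all genes. A part of its 2 libraries that stand apart in this was not tested.

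Besides the members, 67 genes of the window were tested in atria, 60 in ventricles, 76 in cerebellum, 74 in hippocampus and 73 in cortex. In Gnb5-/- atria edgeR called 2 of them (Bmp5 and Klhl31), or 2.99% beside 0.253% of all genes, and in hippocampus 4 (Elovl5, Filip1, Gm19531 and Gm37983), or 5.41% beside 0.165%. In ventricles and in cortex it called 1, Gm10635 in both, or 1.67% beside 0.188% and 1.37% beside 0.0557%. These names were taken after their values were seen. In cerebellum edgeR called 0, with 11 at an unadjusted p below 0.05, where 5.85% of all genes had one, and DESeq2's Wald test called 4. In Gnb5+/- mice edgeR and DESeq2 both called 0 in either heart tissue. There, 9 of the 67 genes had an unadjusted p below 0.05 in atria, beside 7.22% of all genes, and 2 of the 60 in ventricles, beside 4.84%. By direction, the window with its members had 3 higher and 3 lower genes in atria, 6 higher and 2 lower in hippocampus, and 1 of each in ventricles, cerebellum and cortex.

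The protein-coding genes next to the members on each side, other than members and Gnb5, numbered 17 in each tissue. EdgeR called 0 of them in Gnb5-/- mice of any tissue, where it called 0.0557% to 0.253% of all genes. At such shares, 0 of 17 does not set them apart from other genes. An unadjusted p below 0.05 was found for 8 of the 17 in atria, where 8.15% of all genes had one, for 5 in ventricles (4.78% of all genes) and for 5 in hippocampus (7.7%). It was found for 1 each in cerebellum (5.85% of all genes) and cortex (7.39%). DESeq2 called Scg3 and Mto1 in atria (0.62% of all genes), Mto1 in ventricles (0.288%), Hcrtr2 in cerebellum (0.307%), Cd109 in hippocampus (0.514%) and 0 in cortex (0.141%). The median size of their log2 fold changes was 0.06 to 0.22, and the values reached 1.32, for Scg3 in atria. Beyond the 6 Mb limit, the nearest gene called was Hmgn3 at 7.76 Mb in atria (log2 fold change -0.78) and in ventricles (-1.11), Ppib at 9.24 Mb in hippocampus (0.32), Pxylp1 at 21.5 Mb in cerebellum (-0.87) and Bfsp2 at 28.1 Mb in cortex (-3.16). Just inside it were Fam81a at 5.16 Mb in both heart tissues, Filip1 at 4.47 Mb in hippocampus (1.11), Gm10635 at 4.1 Mb in cortex (-3.71) and Cgnl1 at 3.53 Mb in cerebellum.

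**Figure D4:**
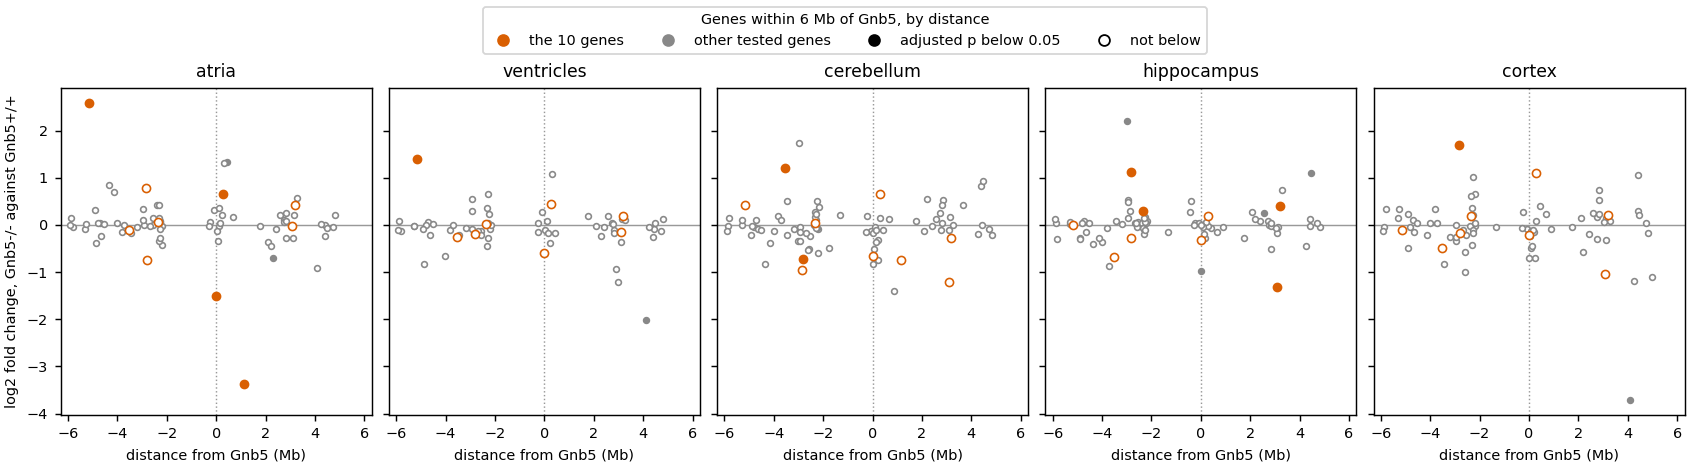
Gnb5-/- against Gnb5+/+ log2 fold change of every tested gene within 6 Mb of Gnb5, by distance from Gnb5 in Mb (negative before its start), in 5 tissues, with the 10 genes in orange and the called ones filled. The 17 adjacent protein-coding genes per tissue had median sizes of 0.06 to 0.22, and edgeR called 0 of them while DESeq2 called 0 to 2 per tissue. Of all genes, edgeR called 0.0557% to 0.253% and DESeq2 0.141% to 0.62%.

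Partners of the members in pathways and families were counted in the same fits. In 9 lists of 88 related genes (STING pathway, motile cilia, Wnt nuclear partners and targets, tight junctions, class V myosins, and the FAM83, SLC17, LysM and FAM81 families), edgeR called 0 genes in any of the 7 comparisons, and so did DESeq2. Of all genes, edgeR called 0.0124% to 0.253% and DESeq2 0.0106% to 0.62%. At such shares, 0 calls do not set these lists apart from other genes. Between 52 and 76 were tested per tissue. Of these, 4 to 11 had an unadjusted edgeR p below 0.05 in Gnb5-/- mice, beside 4.78% to 8.15% of all genes. In Gnb5+/- mice 1 to 5 had one, beside 4.84% to 7.22% of all genes. The 11 were among 75 genes tested in hippocampus, beside 7.7% of all genes, and 7 of them were among the 24 motile cilia genes. For the STING pathway list around Cgas, the median log2 fold change of 12 or 13 genes was -0.05 to 0.08 in Gnb5-/- tissues, with single genes from -0.74 to 0.59. For the 14 tight junction partners of Cgnl1 it was -0.14 in cerebellum and -0.07 in hippocampus. Motile cilia genes, the companions of Mns1 and Tex9, had medians of -0.20 in cerebellum, -0.30 in hippocampus and -0.15 in cortex, against 0.00 to 0.01 over all genes. In hippocampus, Gnb5+/+ mice 7 and 17 had choroid plexus markers of 1500 and 539 CPM, against at most 276 in Gnb5-/- mice. Their ependymal markers were 15.6 and 15.4 CPM, against at most 13.4. The part of such tissue in the medians of the cilia genes was not tested. The Wnt list around Pygo1 had a median of 0.03 in hippocampus, where Pygo1 was called.

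Levels across tissues in Gnb5+/+ mice were not used to choose the genes, and were tested in 30 libraries. Here levels are CPM per kilobase of exons, with all 72 libraries scaled together. Of the 10 members, edgeR called 8 between atria and ventricles, where 51.6% of 19477 genes were called. It called 8 between atria and cerebellum (86.3% of all genes), 9 between atria and hippocampus (86.4%) and 8 between atria and cortex (87%). Between ventricles and cerebellum it called 8 (86.6%), between ventricles and hippocampus 9 (86.9%) and between ventricles and cortex 10 (87.4%). Within the brain it called 9 between cerebellum and hippocampus (68.3%), 6 between cerebellum and cortex (69.1%) and 7 between hippocampus and cortex (33.5%).

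Fam81a spanned the widest range of levels among the abundant members. It stood at 37.5 ± 1.8 CPM per kb in cortex, 21.5 ± 1.72 in hippocampus, 3.11 ± 0.89 in ventricles, 2.51 ± 0.396 in cerebellum and 0.498 ± 0.36 in atria (SD, n = 6). Each step was called except that between ventricles and cerebellum (log2 difference 0.21, SE 0.19, adjusted p = 0.307 from edgeR).

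Cgnl1 was highest in the heart, with 25.1 ± 3.35 in atria and 9.55 ± 0.485 in ventricles, then 6.6 ± 0.631 in cerebellum, 2.27 ± 0.215 in cortex and 2.04 ± 0.453 in hippocampus. Cortex and hippocampus did not differ beyond their spread (log2 difference 0.14, SE 0.11, edgeR adjusted p = 0.329). Myo5c was highest in ventricles, at 1.83 ± 0.328, and lowest in hippocampus, at 0.114 ± 0.0445. Its levels in atria, cortex and cerebellum, 0.736, 0.617 and 0.538 CPM per kb, were not called between neighbours (edgeR adjusted p = 0.153 and 0.526), while atria and cerebellum were called apart (log2 difference 0.39, SE 0.17, adjusted p = 0.0375).

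The cilia genes were low in ventricles. Mns1 ran from 0.381 ± 0.0959 in hippocampus through 0.235 in cerebellum, 0.214 in cortex and 0.108 in atria to 0.0563 ± 0.0296 in ventricles, where cerebellum and cortex were not called apart (edgeR adjusted p = 0.346). Tex9 was more abundant than Mns1 in each tissue on this scale, at 1.37 in cerebellum, 1.23 in cortex, 1.17 in atria, 0.715 in hippocampus and 0.306 in ventricles. Neither cerebellum and cortex (adjusted p = 0.197) nor cortex and atria (adjusted p = 0.717) were called apart for Tex9 by edgeR. With the mouse as a block, the atria and cerebellum were called apart by edgeR (adjusted p = 0.0373 in place of 0.0874 without it).

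Pygo1 was the most even, at 9.34 CPM per kb in hippocampus, 7.28 in ventricles, 6.43 in cerebellum, 6.15 in atria and 5.11 in cortex. Its ventricles and cerebellum (edgeR adjusted p = 0.284) and its cerebellum and atria (adjusted p = 0.0656) were not called apart, while ventricles and atria were (log2 difference -0.20 for atria, SE 0.06, adjusted p = 0.0102 from edgeR). Lysmd2 was near 17 in the brain, with 17.7, 16.9 and 15.6 in cerebellum, hippocampus and cortex, and lower in atria (8.82) and ventricles (7.11). The neighbouring brain regions were not called apart for Lysmd2 (edgeR adjusted p = 0.1 and 0.163), while cerebellum and cortex were (log2 difference 0.26, SE 0.07, adjusted p = 0.00158). Slc17a5 was also higher in the brain, at 5.87 in hippocampus, 4.84 in cortex and 4.59 in cerebellum against 2.71 in ventricles and 2.43 in atria. Cortex and cerebellum (edgeR adjusted p = 0.966) and ventricles and atria (adjusted p = 0.428) were not called apart for Slc17a5.

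Cgas stood between 0.396 and 0.443 CPM per kb in ventricles, atria and hippocampus, where neighbours were not called apart (edgeR adjusted p = 1 and 0.613). It was lower in cortex, at 0.258, and lowest in cerebellum, at 0.106 ± 0.025. Fam83b was the lowest member in every tissue but the atria, where Mns1 was lower, with 0.153 ± 0.0648 in atria, 0.0617 in cerebellum, 0.028 in cortex, 0.0227 in hippocampus and 0.00472 in ventricles, where 5 of 6 libraries held no read. Cortex and hippocampus were not called apart for Fam83b (edgeR adjusted p = 0.745).

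**Figure D5:**
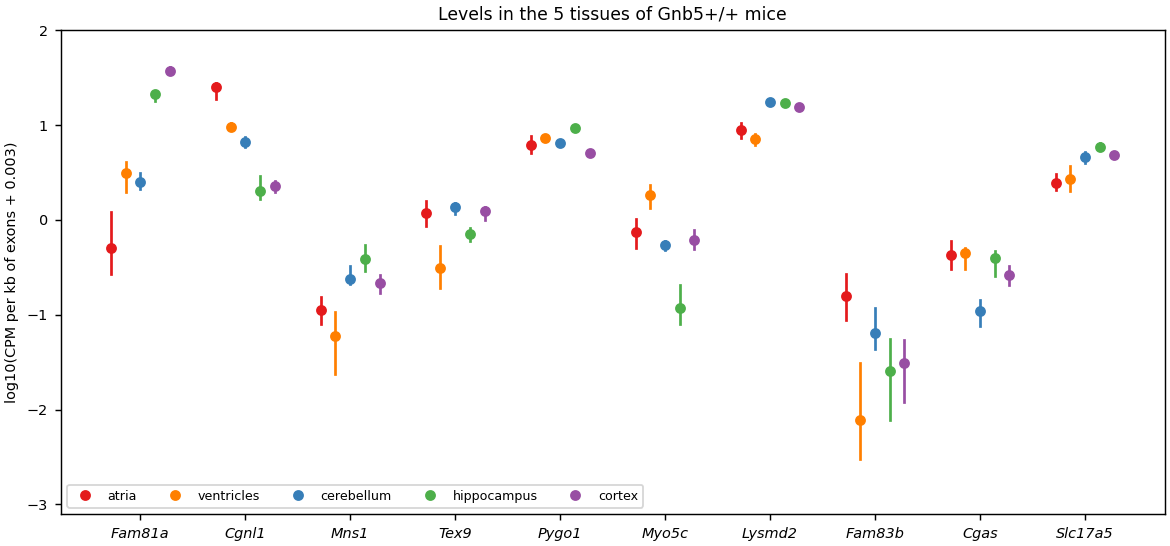
Levels of the 10 genes in 5 tissues of Gnb5+/+ mice, as log10 of CPM per kb of exons plus 0.003, with points for the mean of 6 mice and lines from the lowest to the highest mouse. Fam81a reaches 37.5 CPM per kb in cortex and 0.498 in atria, and Fam83b is the lowest member in every tissue but the atria.

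After each tissue's mean was subtracted, some members varied together over the 72 libraries. Myo5c and Lysmd2, on either side of Gnb5, were inversely related, with Pearson's r of -0.71, or -0.68 in the 67 libraries without the 5 that stand apart. Myo5c and Tex9 had r of 0.55, Mns1 and Slc17a5 0.52, Cgnl1 and Slc17a5 -0.54, and Cgnl1 and Mns1 -0.51. The points share mice, libraries and genotype, so these values repeat in part the genotype differences that chose the genes.

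For 8 of the members, the gene with the most similar pattern was taken by Pearson's r over the same 72 values, among genes that passed the filter in all tissues. For Fam81a it was Scg3 (r 0.58), which lies 0.297 Mb from Gnb5, and for Mns1 it was Slc17a5 (0.52). For Myo5c it was Cep162 (0.69), 11.8 Mb from Gnb5 on chromosome 9, and for Slc17a5 it was Hemk1 (0.55), 32 Mb away on the same chromosome. Cgnl1 was most like Eps8l2 (0.64, or 0.42 over the 67 libraries), Tex9 most like Hook1 (0.59) and Pygo1 most like 1700020I14Rik (0.67), genes of other chromosomes. Lysmd2 had its highest r with Gmds on chromosome 13, 0.90 over all libraries and 0.59 over the 67. By Spearman's rho the most similar gene was another for Fam81a (Lysmd2, 0.60), Pygo1 (Cdk8, 0.56), Myo5c (Cux1, 0.66), Lysmd2 (Nprl2, 0.76) and Slc17a5 (Gm8210, 0.52). Fam83b had too few reads for such a value.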

How the data were processed

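RNA from 5 tissues of 18 mice was sequenced in 72 libraries of stranded total RNA, single-end on a HiSeq4000. The deposited values are counts of reads per gene that the authors made with Cutadapt 1.8, STAR 2.5.3a and HTSeq 0.9.1 on GRCm38 with Ensembl annotation. Whether HTSeq counted by strand is not given in the sources used here. Genotype, tissue and mouse were taken from the labels.

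Gene names and positions came from GENCODE M21 for 53620 of 53715 identifiers. Each tissue was fitted apart with edgeR 4.0.16 in R 4.3.3 (filterByExpr with a minimum count of 10, TMM, quasi-likelihood test, all genotypes of the tissue in 1 fit), with Benjamini-Hochberg adjustment over all genes and a threshold of 0.05. Another fit compared tissues in the Gnb5+/+ mice. The code was tested on simulated data. No pair of replicates agreed within sampling noise (smallest chi-square per gene 6.42).

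The members and gene lists were chosen with earlier results of these data known. The text names all members, Gnb5, adjacent protein-coding genes where a result turns on them, the called genes nearest to either side of the 6 Mb limit, and the gene most correlated with each member (prior count 2), which for Cgas is not reported here. In Gnb5+/+ mice the same animals gave all tissues, and libraries of 1 mouse deviated together (correlations of 0.06 to 0.66, median 0.38, over 60 pairs). DESeq2 1.42.0, other scaling, filters, blocks and sample sets were tried as alternatives, and leaving out libraries was chosen after seeing the data.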

Additional observations from a re-analysis of the deposited data

Results flagged for a closer look

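Of 110 groups of 6 libraries examined, 13 held a library whose gap to its nearest neighbour, as a share of the group's range, exceeded Dixon's 95% critical value, and chance gives about 1 in 20 groups. In CPM, Gnb5-/- mouse 12 had the highest Lysmd2 (145) and Mns1 (1.66) of its cerebellum group, and Gnb5-/- mouse 14 the highest Lysmd2 in cortex (199). Gnb5+/- mouse 4 had the highest Lysmd2 (13.5) and the lowest Pygo1 (22.6) in ventricles. Gnb5+/+ mouse 16 had the highest Fam81a in atria (4.83). Gnb5+/+ mouse 7 had the highest Cgnl1 (29.4) and Myo5c (2.53) in hippocampus, the highest Pygo1 in cortex (56.9) and the lowest Tex9 in cerebellum (14.3). Gnb5+/+ mouse 17 had the lowest Fam81a in hippocampus (105) and the highest Mns1 in cerebellum (2.46), and Gnb5-/- mouse 3 the highest Mns1 in atria (1.6).

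Cgnl1 and Mns1 moved in opposite directions in different tissues of the Gnb5-/- mice, a difference that was not tested. The log2 fold change of Cgnl1 in cerebellum exceeded that in ventricles by 1.47 and that in hippocampus by 1.89. For Mns1, cerebellum lay below atria by 1.75, below hippocampus by 2.09 and below cortex by 2.66 on the log2 scale.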

How the results depend on the processing

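Every log2 fold change of a called member kept its direction under the alternatives run. With DESeq2's Wald test, 6 members were called in Gnb5-/- cerebellum in place of 2, 6 in place of 4 in atria and in hippocampus, and 2 in cortex in place of 1. Of the other genes near Gnb5 it called 4 in place of 2 in atria, 3 in place of 1 in ventricles and 4 in place of 0 in cerebellum. In hippocampus it called 11 of them in place of 4, and in cortex 3 in place of 1. Of all genes DESeq2 called 0.62% in atria, 0.288% in ventricles, 0.307% in cerebellum, 0.514% in hippocampus and 0.141% in cortex. The shares called by edgeR were 0.253%, 0.188%, 0.0817%, 0.165% and 0.0557% in the same order. With no filter on low counts, edgeR called 2 of the other genes near Gnb5 in ventricles, 1 in cerebellum and 2 in cortex. With at least 10 counts in every library it called 0 in cortex, and this filter also removed Fam83b in atria (3 members in place of 4). With the 2 compared genotypes alone in the fit, 0 members were called in Gnb5+/- ventricles in place of 1, where Fam81a kept a log2 fold change of 1.12, and in Gnb5-/- atria 1 other gene and 3 members were called, since Fam83b no longer passed the filter on low counts. The causes of the other changes were not tested.

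Replicate numbers do not pair mice between genotypes: deviations of libraries with the same number had correlations of -0.24 to 0.15, with at most 1 of 6 pairs over 0.1. With the replicate number as a block, edgeR called 0 members in Gnb5-/- cerebellum, where the log2 fold changes were 1.19 for Cgnl1 and -0.72 for Tex9. It called 0 in Gnb5+/- ventricles (Fam81a 1.13), and in hippocampus 2 other genes and 3 members, without Mns1 (1.15). The mouse as a block in Gnb5+/+ mice changed the call of Tex9 between atria and cerebellum alone.

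Without Gnb5-/- mouse 12, 4 members and 5 other genes were called in cerebellum, where 0.359% of all genes were. Without Gnb5+/- mouse 4, 3 other genes were called in Gnb5-/- ventricles, where 0.28% of all genes were. In cortex, leaving out Gnb5-/- mouse 3 gave 1 other gene (0.0552% of all genes), and leaving out mouse 14 gave 4 (0.121%). Leaving out both gave 5 (0.142%). Low counts limit Fam83b, Mns1 and Cgas, where few reads per library stand behind a value.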
